A study of Mus musculus with 8 samples.

Results

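Leukocyte integrins are the adhesion receptors by which white blood cells hold on to vessel walls, matrix and other cells, and 8 of their genes were followed in sorted tumour cells of mice with different Lifr genotypes. The rule that picked them names symbols and uses no measured value, though it was written with earlier results of these data known. The genes were Itgb2, Itgal, Itgam, Itgax, Itga4, Itgb7, Itgae and Itga9. All 8 were among the 24537 genes of the count table, and all 8 passed the filter on low counts. RNA sequencing had been done on EpCAM-positive cells, sorted by FACS from enzymatically dissociated pancreatic tumours of FVB/NJ mice aged 44 to 49 days, with 1 library for each of 8 tumours. The 4 tumours labelled KO carried Lifrf/f, that is, floxed alleles on both copies of the gene for the leukaemia inhibitory factor receptor. The 4 tumours labelled WT were of mixed genotype: WT replicates 1 and 2 were Lifrf/+ and WT replicates 3 and 4 were Lifr+/+. All 8 mice shared KrasLSL-G12D/+, Trp53f/f, the luciferase allele Rosa26LSL-Luc and Pdx1-Cre. The Pdx1 promoter drives Cre in pancreatic epithelium, so leukocytes within such tumours are not its targets. The question asked of these samples was how expression differs in sorted tumour cells with Lifr deficiency.

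An integrin is a pair of an α chain and a β chain, and the β chain needs an α partner to reach the cell surface. The β2 chain, encoded by Itgb2 (CD18), is made by leukocytes and pairs with αL (Itgal, CD11a, the lymphocyte function-associated antigen that binds ICAM proteins), αM (Itgam, CD11b, the complement receptor of macrophages, monocytes and neutrophils), αX (Itgax, CD11c, used as a marker of dendritic cells and of some macrophages) or αD (Itgad). The α4 chain (Itga4) pairs with β1 (Itgb1) to bind VCAM1 and fibronectin or with β7 (Itgb7) to bind the mucosal addressin MAdCAM1. The αE chain (Itgae, CD103) pairs with β7 and binds E-cadherin on epithelium, and the α9 chain (Itga9) pairs with β1, binds tenascin C and osteopontin, and is found outside leukocytes as well. Loss of the β2 chain causes leukocyte adhesion deficiency in people.

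The level of Lifr itself was set beside the labels and was higher in the tumours labelled KO. Lifr stood at 157, 205, 149.7 and 219.6 CPM in the tumours labelled KO and at 126, 93.7, 71.8 and 99.5 CPM in those labelled WT. CPM here are counts scaled to 1000000 per library with TMM factors. The log2 difference, KO minus WT, was 0.90 ± 0.19 (SE, edgeR adjusted p = 0.0121). With libraries scaled to the shared leukocyte genes listed below, it was 0.045 (edgeR adjusted p = 0.852), where the median of all genes was −0.84. The count covers the whole transcript and does not test whether a floxed exon was lost, so groups are named by their labels and each direction rests on them. Libraries held 14938875 to 22698340 counts, and the members had between 189 and 22205 counts in a tumour. EpCAM, used for the sort, is an epithelial surface protein, yet all 8 libraries held leukocyte transcripts. A list of 12 genes shared by leukocytes summed to 4482 to 5339 CPM in the tumours labelled KO and to 2032 to 3121 CPM in those labelled WT. A list of 16 macrophage genes (Lyz2 and Mrc1 the most abundant) summed to 21669.9 to 28331 CPM in KO and to 8236 to 14986 CPM in WT. A list of 12 epithelial genes summed to 3313 to 4798 CPM in KO and to 6445 to 8515 CPM in WT. No gene of these 3 lists was at 0 in all 8 tumours. None of the 3 lists holds an integrin, and the part of these differences in the integrin values was not tested. In bulk RNA, a change in the number of cells of a type cannot be told apart from a change in RNA per cell.

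Across the 8 genes, 4 rose in the tumours labelled KO, 0 fell and 4 did not pass the test. Itgam, Itga4, Itga9 and Itgb7 rose, with log2 differences of 1.45, 1.15, 1.22 and 0.72. Itgb2 was at 0.62, Itgae at 0.010, Itgax at −0.44 and Itgal at −0.50, none past an edgeR quasi-likelihood adjusted p of 0.05. Among all 14728 genes tested, 21.8% were called, 11.1% higher and 10.8% lower, and the median log2 difference was 0.011, against 0.67 over the 8 members. In the downward direction, edgeR gave 0 members an unadjusted p under 0.05 and DESeq2 called 0. Over all 14728 genes, edgeR gave 5300 an unadjusted p under 0.05 in either direction, and DESeq2 called 13.1% of those it tested lower. DESeq2 called 5 members higher, Itgb2 being the addition, against 13.2% of all genes it tested. With library totals alone 3 members were called higher and 0 lower, while the share of all genes called was 6.11% higher and 21.1% lower and the median of all genes moved to −0.17. Of the members, 4 had groups that did not overlap (Itgb2, Itgam, Itga4 and Itga9), as did 25.5% of all tested genes. With 1 tumour left out, 2 to 4 members were called higher, against 6.14% to 11% of all genes. The count was 2 when KO replicate 2, KO replicate 3 or WT replicate 1 was the tumour left out. Without WT replicate 2, 2 members were called lower, against 9.3% of all genes.

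**Figure D1:**
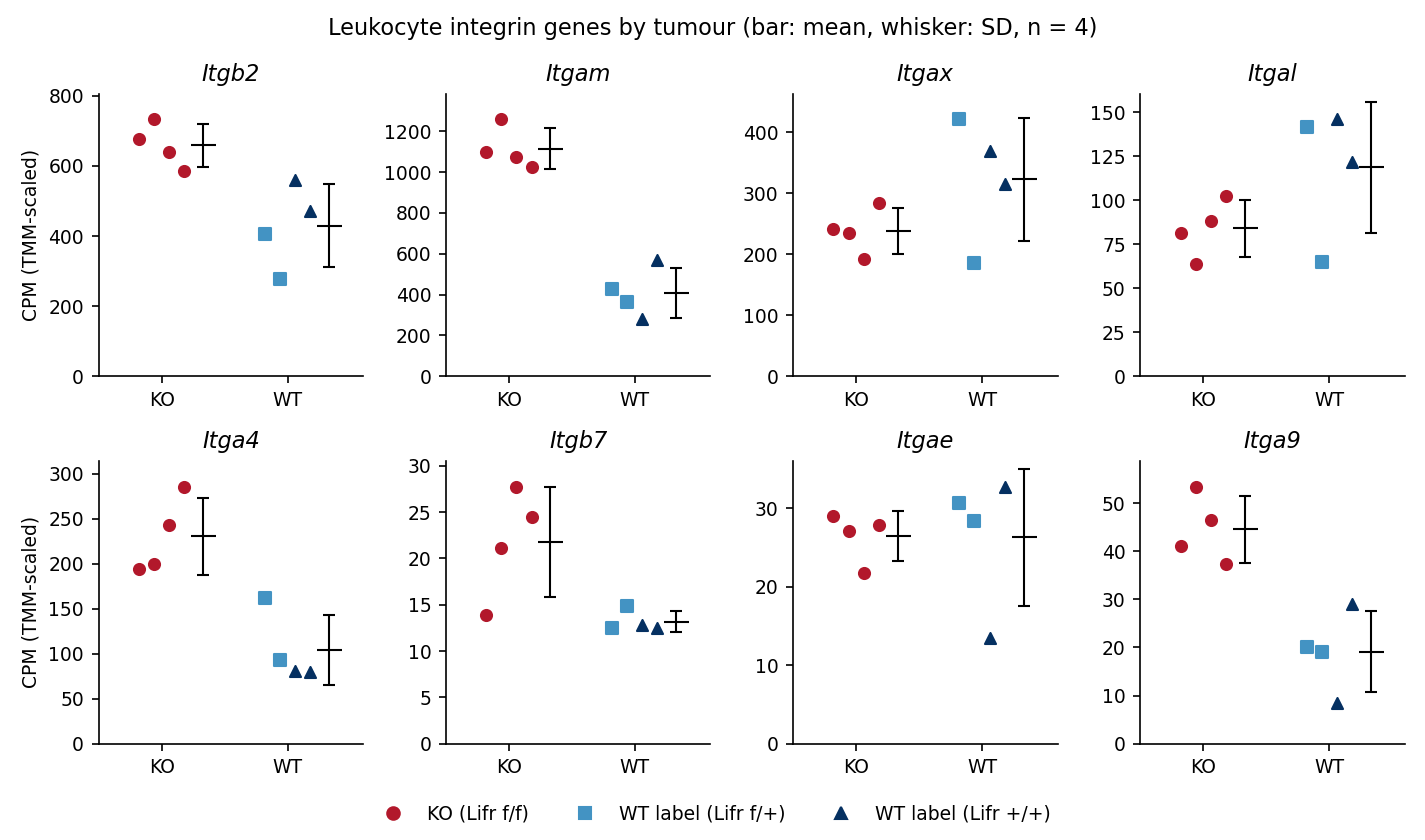
TMM-scaled CPM (y axis, from 0) of each of the 8 genes in the tumours labelled KO and WT (x axis), 1 point per tumour, with mean and SD (n = 4 each) beside the points and the Lifr genotype as marker. Itgam lies at 1026 to 1259 CPM in KO and 278 to 569.6 CPM in WT, while Itgax and Itgal overlap, with 1 f/+ tumour below the other 3 tumours of the WT label.

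Itgam separated the groups most widely among the β2 α chains. The gene lies on mm10 chromosome 7, 128062640 to 128118491, plus strand. Its level was 1099, 1259, 1073 and 1026 CPM in KO replicates 1 to 4, against 427, 361, 278 and 569.6 CPM in WT replicates 1 to 4. All 4 tumours labelled KO were thus above every tumour labelled WT, and the lowest KO value was well clear of the highest WT value. Itgam averaged 1114 ± 101 CPM in KO and 409 ± 123 CPM in WT (SD, n = 4 each). The log2 difference was 1.45, with a standard error of 0.21 and a 95% confidence range of 0.97 to 1.92 (edgeR adjusted p = 0.00451). The call held in each of the 8 fits that left out 1 tumour (highest adjusted p = 0.0167), and in the fits with only the f/+ controls (1.50, adjusted p = 0.0122) or only the +/+ controls (1.40, adjusted p = 0.0425). In those 2 fits 6.75% and 3.41% of all genes were called higher. The annotation holds a further model, Gm49368, that shares 3450 exonic bases with Itgam on the same strand, so reads within those bases cannot be told apart.

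Itgb2, the partner of all these α chains, showed a smaller difference. The gene is on chromosome 10, 77530348 to 77565674, plus strand. It was at 676, 733, 639.7 and 586 CPM in KO replicates 1 to 4, against 406, 278, 559 and 472 CPM in WT replicates 1 to 4. The groups did not overlap, but the gap between KO replicate 4 and WT replicate 3 was narrow, and WT replicate 2 was the lowest of all. Itgb2 averaged 659 ± 61.9 CPM in KO and 429 ± 118 CPM in WT (SD, n = 4 each). The log2 difference was 0.62, with a standard error of 0.20 and a 95% confidence range of 0.17 to 1.07, and missed the threshold (edgeR adjusted p = 0.0552). The gene was called without WT replicate 3 (0.77, adjusted p = 0.0346, where 7.26% of all genes were higher), with only f/+ controls (0.94, adjusted p = 0.0264) and by DESeq2 (adjusted p = 0.0137). It was not called with only +/+ controls (0.35, edgeR adjusted p = 0.161) or library totals alone (0.45, adjusted p = 0.102). Nor was it called on FPKM (limma adjusted p = 0.0811 to 0.111). Leaving out any other single tumour gave edgeR adjusted p = 0.0539 to 0.137.

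Itgax and Itgal did not follow Itgam, although the αL, αM and αX genes lie on the same stretch of chromosome 7 (Itgal at 127296260 to 127335137 and Itgax at 128129568 to 128150657, both on the plus strand). Itgax was at 241, 234, 192 and 285 CPM in KO replicates 1 to 4, against 422, 186, 369.5 and 314 CPM in WT replicates 1 to 4. Itgal was at 81.6, 63.6, 88.2 and 103 CPM in KO replicates 1 to 4, against 142, 65.1, 146 and 122 CPM in WT replicates 1 to 4. In both genes WT replicates 1, 3 and 4 were above all 4 tumours labelled KO, and WT replicate 2 was near the lowest KO value. The log2 differences were −0.44 ± 0.24 (95% interval −0.98 to 0.097, edgeR adjusted p = 0.216) for Itgax and −0.50 ± 0.25 (95% interval −1.07 to 0.070, edgeR adjusted p = 0.188) for Itgal. Without WT replicate 2 both were called lower, Itgax at −0.63 (edgeR adjusted p = 0.0283) and Itgal at −0.70 (adjusted p = 0.0220). Of the 8 tumours, WT replicate 2 had the smallest sum of the shared leukocyte list, 2032 CPM. Of the transcript of Itgad, 445 of 3926 stretches of 40 bases are identical to one in Itgax, so reads could have been shared between this pair, whereas no other pair of these genes shared any. Itgad stood at 9.38 ± 1.94 CPM in KO and 14.5 ± 5.99 CPM in WT (SD, n = 4 each), low beside Itgax, and was not called (edgeR adjusted p = 0.175).

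Sequence upstream of 4 of the genes is shown because Itgam, Itga4 and Itgb7 rose while Itgax, the close neighbour of Itgam, did not. The 250 bases before the annotated start were taken from RefSeq (GRCm38.p6, the assembly of mm10), which gave a window for 5 of the 8 genes, and that of Itga9 belongs to a start 104983 bases from that of the counted transcript. Capitals mark matches on either strand to GAGGAA, a core of sites for the myeloid and lymphoid factor PU.1, or to TGTGGT, a core of sites for RUNX factors. The windows are chr7:128062390-128062639 for Itgam, chr7:128129300-128129549 for Itgax and chr2:79255176-79255425 for Itga4, on the plus strand, and chr15:102231936-102232185 for Itgb7, on the minus strand.
Itgam: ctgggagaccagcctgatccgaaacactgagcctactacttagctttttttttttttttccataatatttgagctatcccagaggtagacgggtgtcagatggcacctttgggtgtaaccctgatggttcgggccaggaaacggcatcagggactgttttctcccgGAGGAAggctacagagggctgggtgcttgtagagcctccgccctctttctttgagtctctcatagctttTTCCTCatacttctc
Itgax: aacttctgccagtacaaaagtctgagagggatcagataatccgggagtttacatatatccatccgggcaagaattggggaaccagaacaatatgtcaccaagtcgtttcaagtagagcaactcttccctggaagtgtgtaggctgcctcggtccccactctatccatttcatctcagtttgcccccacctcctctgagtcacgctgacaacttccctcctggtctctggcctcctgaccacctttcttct
Itga4: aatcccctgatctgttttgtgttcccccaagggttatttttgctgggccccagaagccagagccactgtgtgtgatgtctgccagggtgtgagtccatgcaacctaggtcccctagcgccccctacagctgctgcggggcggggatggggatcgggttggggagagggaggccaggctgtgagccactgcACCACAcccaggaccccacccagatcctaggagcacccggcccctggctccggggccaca
Itgb7: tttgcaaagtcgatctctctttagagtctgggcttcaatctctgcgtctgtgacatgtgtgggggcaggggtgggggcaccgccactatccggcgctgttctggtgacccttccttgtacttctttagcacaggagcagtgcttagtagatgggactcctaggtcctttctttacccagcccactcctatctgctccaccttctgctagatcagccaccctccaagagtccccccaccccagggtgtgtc
The Itgam window held 2 matches to GAGGAA, beginning 84 and 15 bases before the start, and 0 to TGTGGT. The Itga4 window held 1 match to TGTGGT, beginning 60 bases before the start, and the windows of Itgax and Itgb7 held 0 of either. No match overlapped another. Of 32851 promoter windows of the same length, 23.3% held GAGGAA and 14.0% held TGTGGT, so such matches are common, and a window without these letters says nothing of binding.

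Levels of different genes were compared per length of the counted transcript. In the tumours labelled KO, Itgam (239.8 ± 21.8 CPM per kilobase) and Itgb2 (232 ± 21.8) were about level, followed by Itgax (59.6 ± 9.48), Itga4 (23.5 ± 4.36) and Itgal (16.2 ± 3.12), with Itgb7 (8.21), Itgae (6.95) and Itga9 (6.39) lowest. In the tumours labelled WT, Itgb2 led (151 ± 41.6 CPM per kilobase), Itgam (88.0 ± 26.5) and Itgax (80.9 ± 25.3) were within their spread of each other, and Itgal (22.9 ± 7.17) stood above Itga4 (10.6 ± 4.02). Itgae (6.91), Itgb7 (4.96) and Itga9 (2.74) were again lowest (SD, n = 4 each). Over all 8 tumours, neighbours in the order of mean level overlapped in range, except Itgax and Itgal, where Itgax was above Itgal in 8 of 8 tumours.

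The make-up of the β2 α chains differed between the labels. αM accounted for 75.1%, 78.8%, 77.5% and 70.1% of the summed CPM per kilobase of the 4 α genes in KO replicates 1 to 4, against 40.1%, 56.0%, 32.2% and 53.7% in WT replicates 1 to 4. αX accounted for 16.1% to 22.6% in KO and 33.6% to 49.8% in WT. αL accounted for 3.56% to 6.28% in KO and 9.05% to 15.1% in WT, and αD for 0.625% to 0.990% in KO and 1.34% to 2.93% in WT. None of these 4 shares overlapped between the labels, and in WT replicates 1 and 3 the αX share was larger than the αM share. The 4 shares are parts of 1 sum, so a larger αM share lowers the others, and they are not 4 separate results. In CPM, Itgax, Itgal and Itgad overlapped between the labels and were not called. Of single genes in CPM, 25.5% did not overlap, and no such figure was computed for shares of a sum. The 4 α genes together stood at 1.38 ± 0.10 times the level of Itgb2 in KO and at 1.34 ± 0.28 times in WT (SD, n = 4 each), a difference smaller than the spread between tumours.

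**Figure D2:**
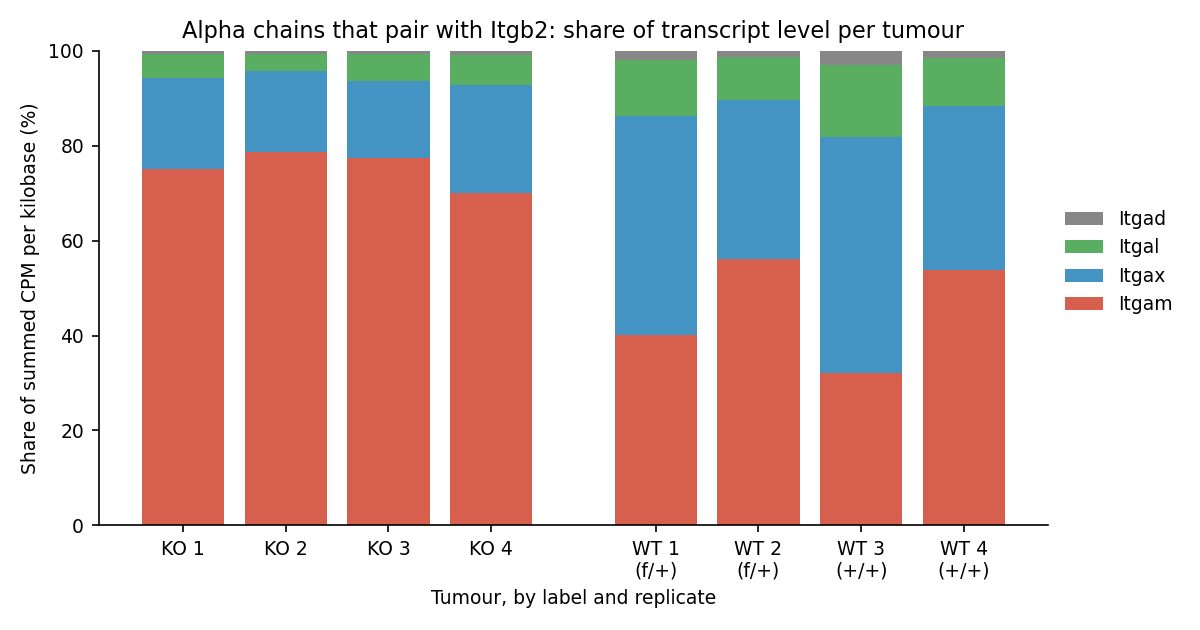
Share (y axis, percent) of each β2-pairing α gene in their summed TMM-scaled CPM per kilobase, 1 bar per tumour (x axis), with the tumours labelled KO on the left and those labelled WT, with their Lifr genotype, on the right. Itgam takes 70.1% to 78.8% of each KO bar and 32.2% to 56.0% of each WT bar.

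The same contrast was tested on ratios of counts within a tumour, which need no scaling between libraries. Itgam over Itgb2 had a log2 ratio of 0.70, 0.78, 0.75 and 0.81 in KO replicates 1 to 4, against 0.071, 0.38, −1.01 and 0.27 in WT replicates 1 to 4. The tumours labelled KO lay close together, and WT replicate 3 was far below the rest. The mean difference was 0.83, and it was 0.52 without WT replicate 3. Itgal over Itgb2 differed by −1.11 and Itgax over Itgb2 by −1.05, with all 4 tumours labelled KO below all 4 labelled WT in each. Each of these 3 ratios gave an exact two-sided permutation p = 0.0286, the smallest that 4 against 4 tumours allows, and an adjusted p of 0.0457 over 8 ratios. That adjusted value arises because 5 of the 8 ratios tied at the smallest p. The 3 ratios share Itgb2 as denominator, so they are not separate results. Of single genes in CPM, 25.5% did not overlap, and no such share was computed for ratios of other gene pairs. Itgb2 over Ptprc, the pan-leukocyte phosphatase gene for CD45, was at a log2 ratio of 0.39 ± 0.16 in KO and 0.48 ± 0.27 in WT (SD, n = 4 each, exact permutation p = 0.571, adjusted p = 0.571). The log2 differences of Itgb2 and Ptprc in CPM were 0.62 and 0.73, and the difference in their ratio turned from −0.088 to 0.026 without WT replicate 3.

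**Figure D3:**
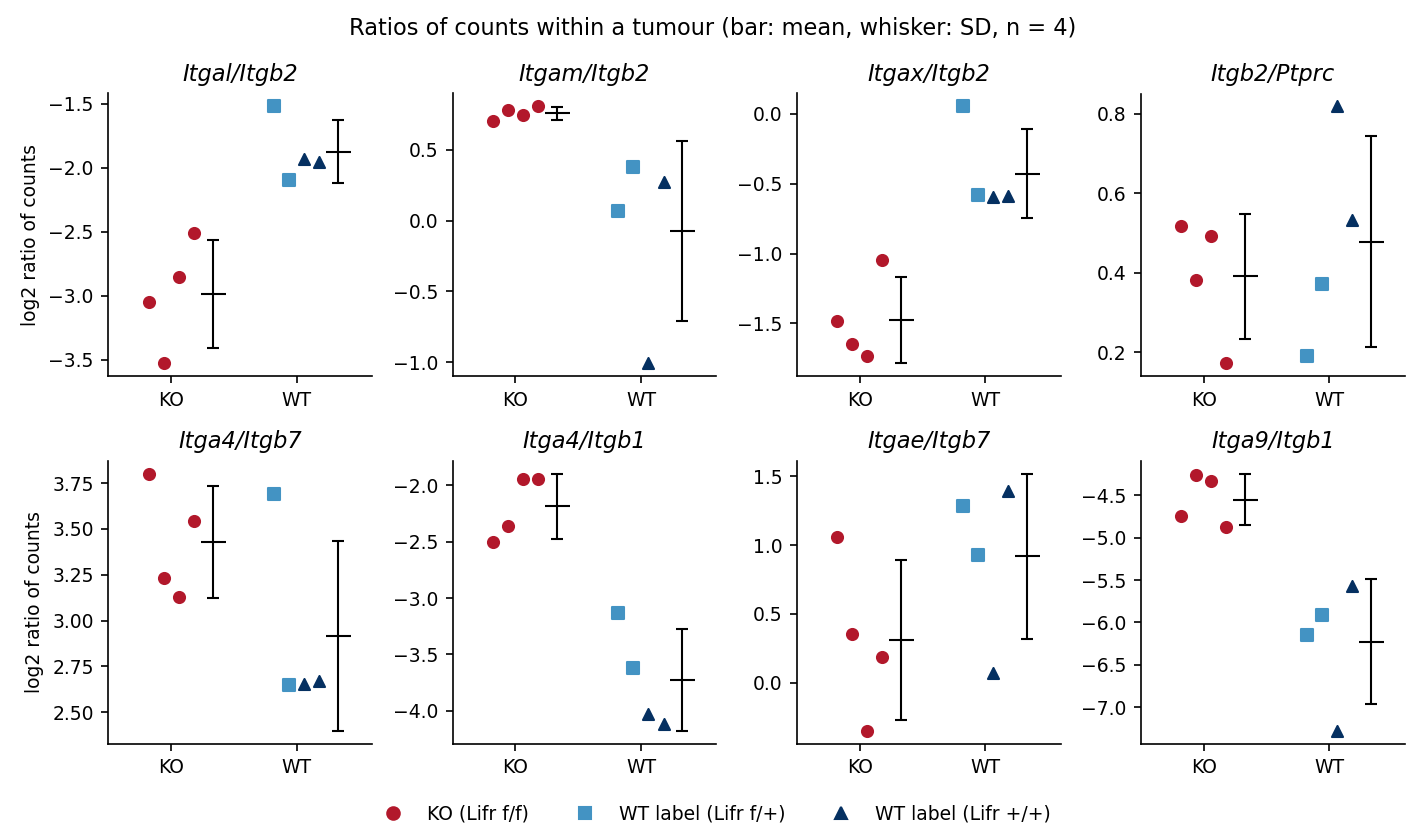
Log2 ratio of counts of 2 genes in the same tumour (y axis) by label (x axis), 1 point per tumour, with mean and SD (n = 4 each) and the Lifr genotype as marker. The labels do not overlap in Itgal/Itgb2, Itgam/Itgb2, Itgax/Itgb2, Itga4/Itgb1 and Itga9/Itgb1, and they overlap in the other 3 ratios. Ratios with the same denominator are linked, and no share of separated ratios over other gene pairs was computed.

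Itga4, the α chain used by monocytes and lymphocytes to bind VCAM1, rose in the tumours labelled KO. The gene is on chromosome 2, 79255426 to 79333114, plus strand. It was at 194, 199, 243 and 285 CPM in KO replicates 1 to 4, against 162, 93.4, 80.8 and 79.5 CPM in WT replicates 1 to 4. The groups did not overlap, and WT replicate 1, an f/+ tumour, was closer to KO replicate 1 than to the other tumours of its label. The log2 difference was 1.15 ± 0.25 (95% interval 0.59 to 1.71, edgeR adjusted p = 0.0136), which held with any 1 tumour left out (highest adjusted p = 0.0386). It was 1.52 (adjusted p = 0.0304) with only +/+ controls and 0.85, not called, with only f/+ controls (adjusted p = 0.0816). Cerkl, a gene on the opposite strand that shares 1124 exonic bases with Itga4, had 0.372 to 1.77 CPM in the 8 tumours.

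The possible β partners of α4 had differences of opposite sign with TMM factors. Itgb7 (chromosome 15, 102215995 to 102231935, minus strand) rose, at 13.9, 21.1, 27.8 and 24.5 CPM in KO replicates 1 to 4, against 12.5, 14.9, 12.8 and 12.5 CPM in WT replicates 1 to 4. KO replicate 1 was below WT replicate 2, so the groups overlapped. The log2 difference was 0.72 ± 0.20 (edgeR adjusted p = 0.0321), and leaving out KO replicate 2, 3 or 4, or WT replicate 1, 3 or 4, ended the call (adjusted p = 0.0641 to 0.0771), as did library totals alone (0.55, adjusted p = 0.0899). Itgb7 was also not called with only f/+ controls (0.67, edgeR adjusted p = 0.164) or only +/+ controls (0.78, adjusted p = 0.118). Nor was it called on FPKM (limma adjusted p = 0.135 to 0.180), and the call stayed in 6 of 19 alternatives. Itgb1, the broadly expressed partner, was at 1039 ± 78.3 CPM in KO and 1319 ± 121 CPM in WT (SD, n = 4 each), a log2 difference of −0.34 that was not called (edgeR adjusted p = 0.0592), though it was called without WT replicate 2 (adjusted p = 0.0370) and with library totals alone (−0.52, adjusted p = 0.00831). With libraries scaled to the epithelial list, Itgb1 was called higher (0.52, edgeR adjusted p = 0.0417), where the median of all genes was 0.90. Scaled to the shared leukocyte genes, it was called lower (−1.18, adjusted p = 0.000327), where that median was −0.84. The log2 ratio of Itga4 to Itgb1 was higher in all 4 tumours labelled KO, by a mean of 1.54 (exact permutation p = 0.0286, adjusted p = 0.0457). The ratio of Itga4 to Itgb7 overlapped, with a mean difference of 0.51 (exact permutation p = 0.114, adjusted p = 0.152). Of the ligands of these pairs, Vcam1 was at 167 ± 24.6 CPM in KO and 152 ± 53.5 CPM in WT, and Madcam1 was under 1 CPM on average in both, at 0.789 and 0.561 CPM.

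Itgae, which marks resident T cells and some dendritic cells in epithelia, averaged 26.4 ± 3.18 CPM in KO and 26.3 ± 8.75 CPM in WT (SD, n = 4 each). The gene is on chromosome 11, 73090595 to 73147449, plus strand. It was at 29.0, 27.0, 21.8 and 27.9 CPM in KO replicates 1 to 4, against 30.6, 28.3, 13.4 and 32.7 CPM in WT replicates 1 to 4. WT replicate 3 was the lowest and WT replicate 4 the highest of all 8. The log2 difference was 0.010 ± 0.25 with a 95% interval of −0.56 to 0.58 (edgeR adjusted p = 0.981), an interval that leaves room for a moderate change either way. It was −0.17 with library totals alone. Its ligand Cdh1, the gene of E-cadherin, fell to 675 ± 110 CPM in KO, against 1131 ± 154 CPM in WT (SD, n = 4 each, log2 difference −0.74, edgeR adjusted p = 0.0117). Cdh1 is also in the list of 12 epithelial genes, so its fall is not separate from that of the list. With libraries scaled to that list, where the median of all genes was 0.90, Cdh1 was at 0.13 (edgeR adjusted p = 0.530). The ratio of Itgae to Itgb7 overlapped between labels (mean log2 difference −0.60, exact permutation p = 0.229, adjusted p = 0.261). The list of 11 T cell genes summed to only 23.6 to 43.1 CPM in KO and 12.4 to 34.6 CPM in WT.

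Itga9 was the rarest of the 8 genes per length and rose in the tumours labelled KO. The counted transcript spans chromosome 9, 118606709 to 118901003, plus strand. It was at 41.0, 53.4, 46.4 and 37.4 CPM in KO replicates 1 to 4, against 20.0, 19.0, 8.46 and 29.0 CPM in WT replicates 1 to 4. All 4 tumours labelled KO were above all 4 labelled WT, with WT replicate 3 lowest. The log2 difference was 1.22 ± 0.31 (95% interval 0.51 to 1.94, edgeR adjusted p = 0.0259), and leaving out KO replicate 1, 2 or 3, or WT replicate 1 or 2, ended the call (adjusted p = 0.0527 to 0.0721). Itga9 was not called with only +/+ controls (1.26, edgeR adjusted p = 0.128) and was with only f/+ controls (1.19, adjusted p = 0.0143). On FPKM without a filter it was not called (limma adjusted p = 0.0583). The call stayed in 11 of 19 alternatives. The ratio of Itga9 to Itgb1 was higher in all 4 tumours labelled KO, by a mean log2 difference of 1.68 (exact permutation p = 0.0286, adjusted p = 0.0457). Of its ligands, Tnc was at 1217 ± 618 CPM in KO and 1897 ± 1115 CPM in WT, and Spp1, the gene of osteopontin, at 2793 ± 749 CPM in KO and 2956 ± 504 CPM in WT (SD, n = 4 each), neither called (edgeR adjusted p = 0.405 and 0.821). A list of 10 fibroblast genes, cells that can also make α9, summed to 767 to 4237 CPM in KO and 408 to 1522 CPM in WT, and its part in the Itga9 value was not tested.

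Integrins that bind matrix included 5 that fell. Of 16 such genes, 15 were tested, of which 0 rose and 5 fell, beside 11.1% and 10.8% of all genes. The median log2 difference of the 15 was −0.34. At an unadjusted p under 0.05 edgeR gave 0 higher and 6 lower, where 5300 of all 14728 genes passed in either direction. DESeq2 called 0 higher and 6 lower, beside 13.2% and 13.1% of all genes. The laminin receptor chains Itga3 (−0.83 ± 0.17), Itgb4 (−0.72 ± 0.16) and Itga7 (−1.03 ± 0.17) fell, as did the collagen receptor chain Itga2 (−0.72 ± 0.18), whose call was lost without KO replicate 2 or WT replicate 1 (edgeR adjusted p up to 0.0697). The remaining call was Itgb8 (−0.58, adjusted p = 0.0334), which was lost without any 1 of 7 tumours, WT replicate 4 being the exception. Itga2b, the platelet chain, was at 2.05 ± 0.21 CPM in KO and 3.48 ± 0.98 CPM in WT and was not called (edgeR adjusted p = 0.0534). Between the labels, epithelial genes fell in 10 of 12 cases, and their part in the matrix integrin values was not tested. With libraries scaled to that epithelial list, where the median of all genes was 0.90, 6 of the 15 matrix genes were called higher and 0 lower with a median of 0.52, beside 74.9% of all genes called higher. Below the all-gene median on both scales, the group's median turned in sign with a scaling that moves all genes alike.

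**Figure D4:**
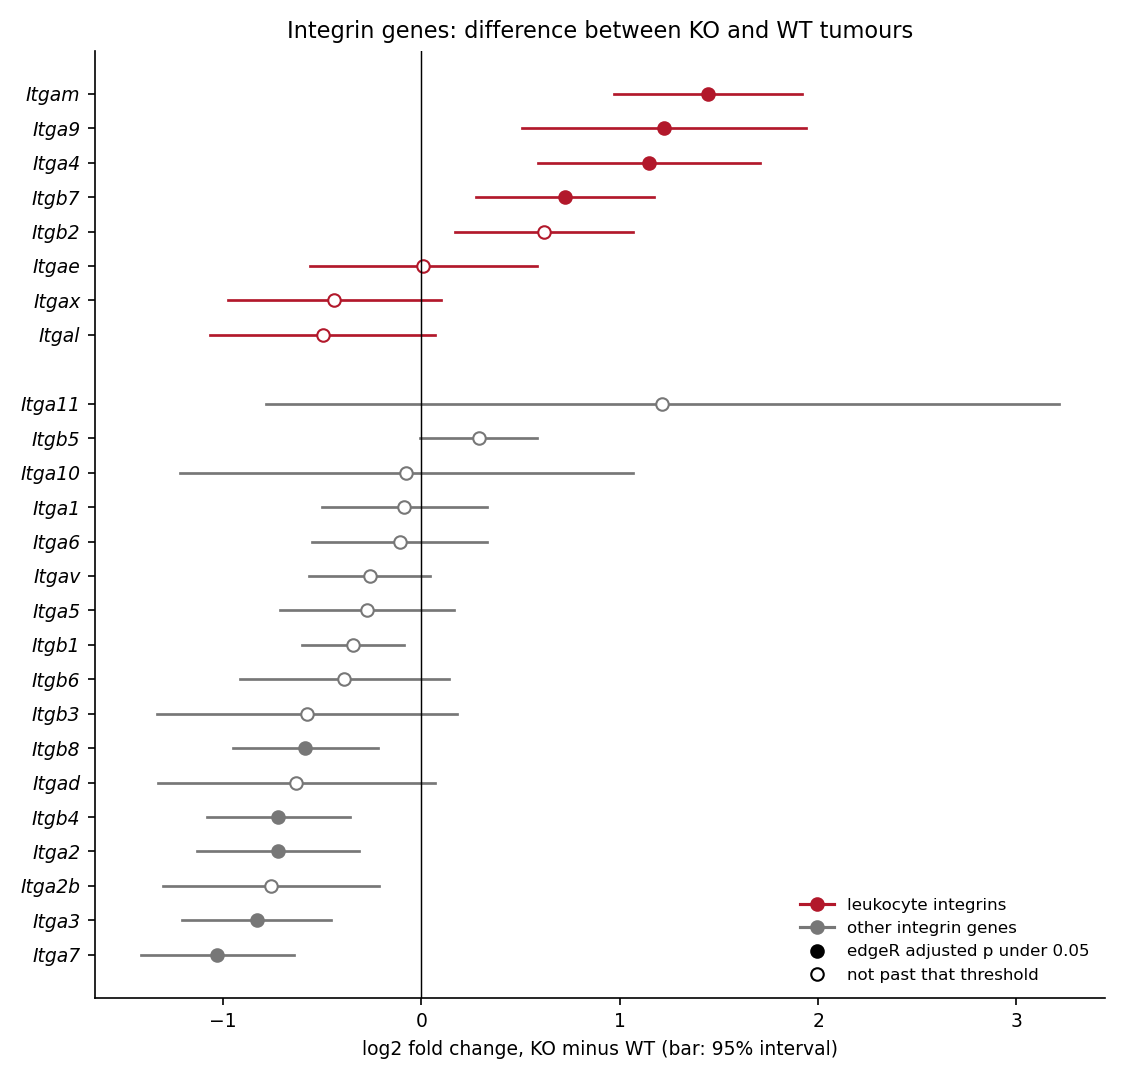
Log2 fold change, KO minus WT (x axis), with its 95% interval (bars) for the 8 leukocyte integrins (upper group) and the 17 other integrin genes tested (lower group); filled points passed an edgeR adjusted p of 0.05. The 4 filled leukocyte points lie at 0.72 to 1.45, and the 5 filled points among the others lie at −1.03 to −0.58.

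Regulators of the switch of integrins to their binding form, activators and inhibitors together, rose in most cases. The list had 18 genes, with 11 risen, 0 fallen and 7 not past the test, beside 11.1% risen and 10.8% fallen of all genes. Its median log2 difference was 0.50. Downward, edgeR gave 0 an unadjusted p under 0.05 and DESeq2 called 0. On a scale set to the shared leukocyte genes, where 1.07% of all genes were called higher and 74.4% lower with a median of −0.84, the list had 1 higher and 9 lower with a median of −0.33. Fermt3, which codes for kindlin-3, the leukocyte protein that binds β tails, rose to 312 ± 17.0 CPM in KO, against 167 ± 30.4 CPM in WT (SD, n = 4 each, log2 difference 0.91, edgeR adjusted p = 0.00496). Rasgrp2, an exchange factor that loads RAP1 with GTP, had a log2 difference of 1.72 ± 0.23, and the RAP1 genes Rap1b and Rap1a had 0.83 ± 0.11 and 0.67 ± 0.093 (edgeR adjusted p = 0.00440 for each). These 4 calls held with any 1 tumour left out. Among genes of proteins that restrain activation, named after their values were seen, Sipa1, which switches RAP1 off, rose as well (0.69, edgeR adjusted p = 0.00624), while Rasa3 (0.38), Sharpin (−0.00094), Itgb1bp1 (0.20) and Flna (−0.16) were not called. The list of 12 shared leukocyte genes rose in 11 cases in the same tumours, with a median of 0.82, and the part of leukocyte content in these values was not tested.

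Kinases and adaptors downstream of leukocyte integrins rose in 12 of 14 cases and fell in 2, with a median log2 difference of 0.76. Over all genes, 11.1% rose and 10.8% fell. On the leukocyte scale 0 were called higher and 2 lower, beside 1.07% and 74.4% of all genes. The median there was −0.071, against −0.84 for all genes. Syk, the kinase recruited by β2 integrins through ITAM adaptors, rose to 373 ± 49.6 CPM in KO, against 199 ± 33.2 CPM in WT (SD, n = 4 each, log2 difference 0.91, edgeR adjusted p = 0.00596). The phospholipase gene Plcg2 (0.75), the PI3-kinase gene Pik3cd (0.95) and the kinase gene Btk (0.90) rose as well, and all 4 calls held with any 1 tumour left out. The 2 that fell, named after their values were seen, were the kinase genes Src (−0.54, adjusted p = 0.0302) and Ptk2b (−0.49, adjusted p = 0.0339). Leaving out KO replicate 2, 3 or 4, or WT replicate 1, 3 or 4, ended the call of Src, and leaving out KO replicate 1, 2 or 3, or WT replicate 1 or 3, ended that of Ptk2b (edgeR adjusted p up to 0.0852 and 0.0961). Src is not restricted to leukocytes.

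Of 10 transcription factors of leukocyte development, 5 rose, 0 fell and 5 did not pass, with a median log2 difference of 0.66. Over all genes, 11.1% rose and 10.8% fell. On the leukocyte scale 0 factors were called higher and 1 lower, beside 1.07% and 74.4% of all genes. The median there was −0.16, against −0.84 for all genes. Downward, edgeR gave 0 an unadjusted p under 0.05 and DESeq2 called 0. Spi1, which codes for PU.1, rose to 224 ± 19.9 CPM in KO, against 132 ± 30.4 CPM in WT (SD, n = 4 each, log2 difference 0.76, edgeR adjusted p = 0.0144). Ikzf1 (0.87), Irf8 (0.74) and Cebpa (0.57) rose too, the last not without any KO replicate or WT replicate 1 (edgeR adjusted p up to 0.0821), and Runx1 and Runx3 did not pass (−0.30 and 0.27). Of 19 ligands of these integrins 15 were tested, of which 1 rose and 2 fell, shares near the 11.1% higher and 10.8% lower of all genes. Library totals alone gave the same counts, and the leukocyte scale gave 0 higher and 9 lower, beside 74.4% of all genes lower. The rise was Icam2 (5.12 ± 1.41 CPM in KO and 1.77 ± 0.57 CPM in WT), a ligand of αL, and the falls were Cdh1 and F11r, a junction protein that also binds αL (log2 difference −0.87 ± 0.080, edgeR adjusted p = 0.00440). With libraries scaled to the epithelial list, Cdh1, a gene of that list, and F11r were not called (edgeR adjusted p = 0.530 and 0.948). There 9 of the 15 ligands were called higher and 0 lower, beside 74.9% of all genes higher. Icam1, the main inducible ligand of αL and αM, was at 144 ± 28.5 CPM in KO and 116 ± 16.7 CPM in WT and was not called (edgeR adjusted p = 0.198).

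The integrin genes were then set beside the leukocyte content of each library. With libraries scaled to the summed list of 12 shared leukocyte genes, the median of all tested genes moved to −0.84, 1.07% of genes were called higher and 74.4% lower. On that scale Itgam was the only one of the 8 members called higher, at 0.61 (edgeR adjusted p = 0.0199). Itgal (−1.28, adjusted p = 0.000628), Itgax (−1.24, adjusted p = 0.000485) and Itgae (−0.86, adjusted p = 0.0146) were called lower, of which Itgae was near the median of all genes. Itga4 (0.31) and Itga9 (0.37) were not called, and Itgb2 (−0.19) and Itgb7 (−0.14) turned below 0 and were not called. Of the 74 tested genes of the 6 related lists, 1 was called higher on that scale, Rasgrp2 (0.86, adjusted p = 0.00812), and 36 lower. The macrophage list and Itgam were both higher in each tumour labelled KO than in each labelled WT, while Itgax and Itgal were highest in 3 tumours labelled WT. Of the 16 macrophage genes 14 rose and 0 fell by edgeR, beside 11.1% and 10.8% of all genes. At an unadjusted p under 0.05 edgeR gave 15 upward and 0 downward, and DESeq2 called 15 and 0. With libraries scaled to the shared leukocyte list, 4 of the 16 macrophage genes were called higher and 0 lower. Their median there was 0.38, so Itgam was not alone in standing higher on that scale. The other leukocyte lists were small: 10 dendritic cell genes summed to 319 to 721 CPM in KO and 179 to 358 CPM in WT, 10 neutrophil genes to 103 to 239.9 CPM in KO and 85.8 to 134 CPM in WT, 7 B cell genes to 47.4 to 77.7 CPM in KO and 25.9 to 42.1 CPM in WT, and 9 NK cell genes to 22.8 to 71.5 CPM in KO and 13.3 to 26.4 CPM in WT. None of the genes in the macrophage, dendritic, neutrophil, T, B or NK cell lists was at 0 in all 8 tumours. The list of mast cell, basophil and eosinophil genes, in which Epx was at 0 throughout, summed to 48.6 to 60.7 CPM in KO and 59.4 to 117 CPM in WT. Platelet and erythroid genes summed to 25.5 to 52.6 CPM in KO and 20.3 to 46.1 CPM in WT, endothelial genes to 73.7 to 125 CPM in KO and 44.0 to 90.3 CPM in WT, and acinar genes (Amy2a5 at 0) to 1669 to 34247 CPM in KO and 396 to 7472 CPM in WT.

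**Figure D5:**
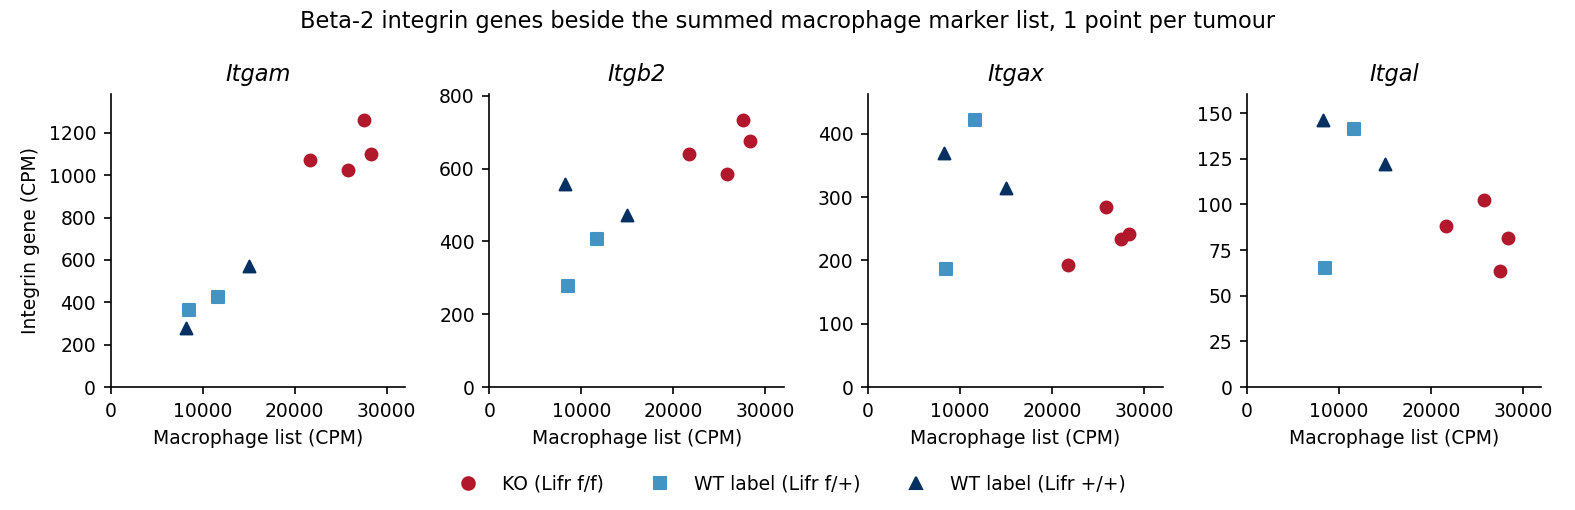
CPM of Itgam, Itgb2, Itgax and Itgal (y axes, from 0) against the summed CPM of 16 macrophage genes (x axis), 1 point per tumour, with the Lifr genotype as marker. The KO points lie at 21669.9 to 28331 CPM on the x axis and the WT points at 8236 to 14986 CPM; Itgam is highest in the KO points, and Itgax and Itgal are highest in 3 of the 4 WT points.

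The 2 genotypes within the WT label, with 2 tumours each, were not tested against each other, and their values are given side by side. Itgb2 values of 406 and 278 CPM (f/+) lay below those of 559 and 472 CPM (+/+), without overlap. Itga4 went the other way, at 162 and 93.4 CPM in f/+ and 80.8 and 79.5 CPM in +/+. Itgam, Itgax, Itgal, Itgb7, Itgae and Itga9 overlapped between the 2 genotypes. The WT tumours also differed within a genotype: among the +/+ tumours, Itgam was at 278 and 569.6 CPM, Itgae at 13.4 and 32.7 CPM and Itga9 at 8.46 and 29.0 CPM in WT replicates 3 and 4.

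Genes whose pattern over the 8 tumours was most like that of a β2 member were found by the root-mean-square difference between log2 CPM profiles, each centred on its own mean, among the 12871 tested genes whose average log2 CPM reached 1. For Itgam the nearest included the chemokine gene Ccl9 (0.075), the phosphodiesterase gene Pde2a (0.11) and Dse (0.11), beside a spread of 0.80 for Itgam itself. For Itgb2 they were Myo7a (0.080), the selectin ligand gene Selplg (0.095), Lpin1 (0.099) and Hip1 (0.10), beside a spread of 0.43. For Itgal they were the checkpoint receptor gene Havcr2 (0.12), Atp2b4 (0.16), Mical1 (0.16) and Chrnb2 (0.16), and for Itgax they were Mical1 (0.092), the syndecan gene Sdc2 (0.15), Hectd2 (0.15) and the glypican gene Gpc1 (0.15), beside spreads of 0.44 and 0.40. Mical1 was the only gene in the lists of both Itgal and Itgax, and none of the genes named for Itgam was shared with them. The named genes are the closest of 12871 by selection. Their profiles include the difference between the labels, so closeness, or the lack of shared genes, is no separate result.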

How the data were processed

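RNA sequencing of EpCAM-positive cells from 8 pancreatic tumours was analysed, with 1 library per tumour, grouped by sample title into 4 labelled KO and 4 labelled WT. Replicate numbers follow the order of listing and pair no tumours. The authors deposited whole-number counts and FPKM values. Per the file headers, both came from HOMER's analyzeRepeats.pl on mm10 RefSeq exons with the strand option at +, keeping 1 transcript per gene; the counts are unnormalized and the deposited FPKM are per kilobase with a normalization setting of 1000000. The submitters' processing notes also name FastQC 0.11.2, STAR 2.4.0k and edgeR 3.6.8. Strandedness of the libraries is not given in the sources used here. Both tables kept the same transcript for 7 of the 8 members, Itga9 being the exception.

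The test of counts was edgeR 4.0.16 (glmQLFit, glmQLFTest; R 4.3.3), with TMM factors. Genes were kept by filterByExpr at a minimum count of 10 and a total of 15, leaving 14728, with Benjamini-Hochberg adjustment over all of them and calls at an adjusted p under 0.05. Ratios of counts (0.5 added) were tested by exact two-sided permutation over 70 assignments (SciPy 1.17.1), adjusted over 8 ratios. Related gene lists are described by counts and medians. Alternatives used other scalings, no filter, DESeq2 1.42.0, limma 3.58.1 on log2 FPKM, parts of the controls and each tumour left out. The edgeR test was also run on simulated counts, drawn with mean levels and dispersions estimated from these data. It called 4 of 100 genes changed by a log2 of 0.5 and 60 of 100 changed by 1, and 6 unchanged genes. Few genes were changed there, unlike in these data, so these rates may not carry over. A gene not called at a difference near 0.5 is thus not shown to be unchanged. The labels give no batch. Per the labels, tumours were dissected individually, so each is taken as 1 animal.

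Members and gene lists were chosen with earlier results of these data known. Named genes were the members, their partners, up to 4 called genes of smallest p per list, and the 4 nearest in profile to each β2 member; other ligands, Runx1, Runx3, Itgb8, Src, Ptk2b and the inhibitors of activation were named after their values were seen. Not every gene chosen this way is reported here. 0 columns of other samples were in the tables. Upstream sequences are from RefSeq (GRCm38.p6).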

Additional observations from a re-analysis of the deposited data

Results flagged for a closer look

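Single tumours stood apart from the other 3 of their label in 4 of 32 groups of values examined (8 genes and 8 ratios under each label), where chance marks about 1 in 20 groups of 4. WT replicate 1 (f/+) had 162 CPM of Itga4, above the other tumours labelled WT (79.5 to 93.4 CPM). The same tumour was high in the log2 ratio of Itga4 to Itgb7, at 3.69, beside 2.65 to 2.67 in the other 3, and both values use the Itga4 count. It was also high in the log2 ratio of Itgax to Itgb2, at 0.054, beside −0.60 to −0.58. WT replicate 2 (f/+) had 14.9 CPM of Itgb7 from 320 counts. The other tumours with that label had 12.5 to 12.8 CPM from 212 to 286 counts. The part of counting error in this spread was not tested.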

How the results depend on the processing

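The call of Itgam as higher held under all 19 alternatives run (log2 difference 0.61 to 2.32), and Itga4 stayed above 0 in all 19 but was not called with only f/+ controls or with libraries scaled to the shared leukocyte list. The count of members called higher was 1 with libraries scaled to the shared leukocyte list, beside 1.07% of all genes. It was 2 with only +/+ controls, beside 3.41%, and 2 on FPKM with a pseudocount of 1 and no filter, beside 3.98%. It was 2 to 4 with 1 tumour left out, beside 6.14% to 11%. The epithelial scale raised it to 6, but there 74.9% of all genes rose. The count called lower was 3 with libraries scaled to the shared leukocyte list, beside 74.4% of all genes. It was 0 to 2 with 1 tumour left out, beside 5.59% to 10.6%. In the 6 related lists, 29 genes were called higher and 9 lower of 74 tested, beside 11.1% and 10.8% of all genes. On the leukocyte scale, which by construction moves every gene down, 1 was higher and 36 lower, beside 1.07% and 74.4% of all genes. Over all genes, 50.7% of the calls were higher with TMM and 22.5% with library totals alone, where the median was −0.17 in place of 0.011. Calls over all genes numbered 3216, and 1926 with only f/+ controls, 1106 with only +/+ controls, 1755 without KO replicate 2, 2077 without WT replicate 3, 11119 on the leukocyte scale and 11116 on the epithelial scale. Direction turned for Itgb2 (−0.19) and Itgb7 (−0.14) on the leukocyte scale and for Itgal (0.34) and Itgax (0.41) with the 12 epithelial genes as the scale, where all genes shift upward. Itgae turned to −0.17 with library totals alone, −0.86 on the leukocyte scale, −0.16 with only f/+ controls, −0.092, −0.097 and −0.092 on FPKM with pseudocounts of 1, 0.1 and 1 without a filter, and lay at −0.21 to 0.13 with 1 tumour left out. Itgb2 over Ptprc turned to 0.11 with only f/+ controls and lay at −0.18 to 0.026 with 1 tumour left out. Of 8 ratios, 5 passed an adjusted p of 0.05. With only f/+ controls, with only +/+ controls or with any 1 tumour left out, 0 did. The smallest possible exact permutation p values of these designs are 0.133, 0.133 and 0.0571, so no ratio could pass. The 5 ratios did not overlap in any of them, which had to follow, because each design only removes tumours from groups already apart. No paired analysis was possible because the labels give the 2 groups no shared replicate numbers. The causes of these changes were not tested.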
